A study of Mus musculus with 6 samples.

Results

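The 4 genes described here, Igkc, Iglc1, Iglc2 and Iglc3, encode the constant regions of the mouse antibody light chains. They were taken by name from a table of gene loci in spleen RNA, where they occupied 5 of 44794 loci with a gene name, because 2 loci carried the name Iglc2. Spleens came from 2 groups of mice treated with imiquimod, which activates the endosomal RNA sensor TLR7; treatment was given 3 times weekly over 4 weeks. The control group, B6.Sle1b (3 libraries), is a C57BL/6 line with the lupus susceptibility interval Sle1b. The Sle1b.IFNγR-/- group (3 libraries) carries the same interval and lacks the interferon-γ receptor, so that all mice shared the interval and the treatment and no untreated or non-autoimmune group was compared. The labels do not give the mice's age, the disrupted receptor subunit, or whether the libraries come from different mice, so that a p-value here reflects the spread of these libraries, which may be technical. The question named in the series' design is how interferon-γ acts on autoreactive B cells that enter the antibody-forming cell and germinal centre pathways.

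An antibody pairs heavy chains with light chains of a single class, kappa or lambda. The kappa locus usually rearranges first in a developing B cell, and the lambda locus is mostly used when kappa rearrangements fail or are autoreactive, so lambda is the minor class in mice. Igkc is the only kappa constant region, whereas each lambda constant region follows a joining segment of its own: Iglj1 precedes Iglc1, Iglj2 precedes Iglc2 and Iglj3 precedes Iglc3. Naive B cells transcribe these genes for their receptor, and antibody-forming cells transcribe them far more strongly for secretion.

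Igkc lies on chromosome 6 (chr6:70726435-70726966, plus strand, GRCm38), where its single constant exon is annotated. The lambda genes lie on the minus strand of chromosome 16, with Iglc1 at chr16:19061618-19062071, Iglc3 at chr16:19065230-19065681 and the locus of Iglc2, merged with Iglj2, at chr16:19198396-19200351. The second locus named Iglc2 rested on an assembled transcript alone and has no annotated position. The first 60 bases of each constant exon are shown because similarity among the lambda genes bears on how far their fragments can be told apart. They were read 5′ to 3′ from the GENCODE transcripts of release 21 (GRCm38), and capitals mark bases of Iglc1 or Iglc3 that differ from the aligned base of Iglc2.
Iglc1 (chr16:19062012-19062071, minus strand): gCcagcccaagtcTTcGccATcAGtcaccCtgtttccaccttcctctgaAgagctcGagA
Iglc2 (chr16:19198793-19198852, minus strand): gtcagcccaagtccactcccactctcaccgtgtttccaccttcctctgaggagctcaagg
Iglc3 (chr16:19065622-19065681, minus strand): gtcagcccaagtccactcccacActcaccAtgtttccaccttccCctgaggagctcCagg
Igkc (chr6:70726435-70726494, plus strand): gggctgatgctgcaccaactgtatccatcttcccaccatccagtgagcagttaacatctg
In this stretch Iglc1 differed from Iglc2 at 12 bases and Iglc3 at 4. Over the 317 aligned bases of the constant segments, Iglc2 and Iglc3 were 96.5% identical, with 11 mismatches, and Iglc1 was 73.2% identical to Iglc2 and 73.8% identical to Iglc3. Of the 268 runs of 50 bases in the Iglc2 segment, 41 (15.3%) also occurred in Iglc3, while none of the 271 in Igkc or in Iglc1 occurred in a transcript of another gene. Values of Iglc2 and Iglc3 are therefore uncertain to the extent that fragments were divided between them. The constant segments of Igkc and Iglc1 showed no such exact sharing at this length. The rest of their counted exons, and matches with mismatches, were not checked.

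Of the scaled total of a library, loci with a gene name held between 17.52% and 19.95%, except for B6.Sle1b replicate 1 at 26.96%. Most of the signal thus lay outside named loci. How far this higher share bears on the light-chain values was not tested. The libraries corresponded to between 4394299 and 6349826 fragments. They differed in RNA level within B6.Sle1b: the median of 29 ribosomal protein genes stood at 2.476, 0.743 and 1.111 times the average library in B6.Sle1b replicates 1 to 3 and between 0.873 and 0.917 in Sle1b.IFNγR-/-. Of 12 genes that define spleen tissue, Nkx2-5, a gene of the developing organ, was at 0 in every library, and the list summed to between 457 and 1470 scaled counts in B6.Sle1b, against 708 to 840 in Sle1b.IFNγR-/-. Genes of the adjacent pancreas summed to between 37.5 and 90.4 against 31.5 and 62.3, and the sum of 90.4 belonged to B6.Sle1b replicate 2. Ins2 was at 0 in every library and Prss2 at 0 in each except that one, which had 3 fragments. The same library held 14 fragments of Ctrb1, which was at 0 elsewhere. It also had the most Cpa1 (7 fragments) and Pnlip (31 fragments). Cela1 and Ins1 were highest elsewhere, at 22 and 4 fragments, and Amy2a5 reached 39.5 scaled counts both there and for Sle1b.IFNγR-/- replicate 3. Whether pancreatic tissue was included was not tested. The spleen list had 7 of 10 tested loci positive (median 0.21) and the pancreas list 1 of 2 (median -0.40). Ifngr1, the ligand-binding receptor chain, lay at 59.9 ± 23.7 and 29.7 ± 12.2 (SD, n = 3 each), and its values overlapped.

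Kappa was lower in every Sle1b.IFNγR-/- spleen than in any B6.Sle1b spleen. Igkc had 9266.6, 677 and 1096.8 scaled counts in B6.Sle1b replicates 1 to 3, against 424, 357 and 461 in Sle1b.IFNγR-/-. The groups did not overlap, and B6.Sle1b replicate 1 alone stood far above the other 5 libraries. Group means were 3680 ± 4840 and 414 ± 52.6 (SD, n = 3 each), and the means of log2(value + 1) differed by -2.21 (SE 0.68). In limma's test over 19227 named loci the unadjusted p was 0.0066 and the Benjamini-Hochberg adjusted p 0.99976, so the difference did not pass. Across those loci 0% passed the adjusted test, 2.08% were lower with an unadjusted p under 0.05 and 5.19% were lower without overlap. In the other direction these shares were 1.02% and 3.51%. Without B6.Sle1b replicate 1 the log2 difference was -1.06 (limma adjusted p = 0.105). Without replicate 2, the B6.Sle1b library of lowest ribosomal protein level, it was -2.95 (limma adjusted p = 0.0155). With the ribosomal protein level as a covariate it was -1.06 (adjusted p = 0.00696 by limma). In bulk spleen RNA, fewer kappa-producing cells and less kappa RNA per cell cannot be told apart.

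**Figure D1:**
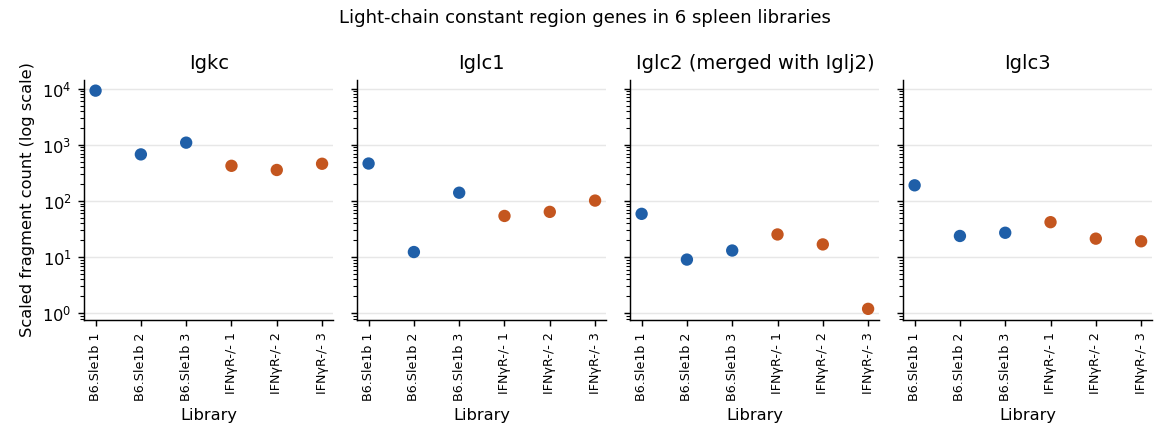
Scaled fragment counts (log axis) of the 4 genes in each library, with B6.Sle1b in blue and Sle1b.IFNγR-/- in orange; for Iglc2 the locus merged with Iglj2 is drawn. Igkc separates the groups, whereas each lambda gene spreads widely within B6.Sle1b and overlaps between groups.

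The lambda genes did not separate the genotypes. Iglc1, the constant region of the most used mouse lambda chain, had 466, 12.3 and 141 scaled counts in B6.Sle1b, against 54.2, 64.1 and 102 in Sle1b.IFNγR-/-. The lowest and the highest of all 6 values both belonged to B6.Sle1b, so the Sle1b.IFNγR-/- range lay inside that of the control group. The log2 difference of Iglc1 was -0.42 (SE 0.89, limma unadjusted p = 0.647), and it became 0.72 without B6.Sle1b replicate 1.

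Iglc3, which shares its variable segment Iglv1 with Iglc1, had 190.5, 23.8 and 27.2 in B6.Sle1b, against 42, 21.4 and 19.2 in Sle1b.IFNγR-/-. Outside B6.Sle1b replicate 1 the 5 libraries lay close together, and the log2 difference went from -0.93 (SE 0.64) to 0.02 when that library was left out. Iglc2 with Iglj2 had 59.1, 9.04 and 13.1 against 25.4, 16.9 and 1.198. The last value corresponds to 1 fragment, under the 3 fragments that a count of 0 allows, and without that library the log2 difference turned from -1.01 (SE 0.90) to 0.09. The second Iglc2 locus had 13.2, 3.29 and 1.88 against 3.498, 0 and 0 and was too low to be tested, so 4 of the 5 loci passed the filter on low values. All 4 tested loci had negative log2 differences, with a median of -0.97, beside 58.1% negative and a median of -0.083 over all loci. This sign rests on B6.Sle1b replicate 1 for Iglc1, which was also positive at 0.10 when libraries were scaled by ribosomal protein genes, and for Iglc3, and on Sle1b.IFNγR-/- replicate 3 for Iglc2.

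**Figure D2:**
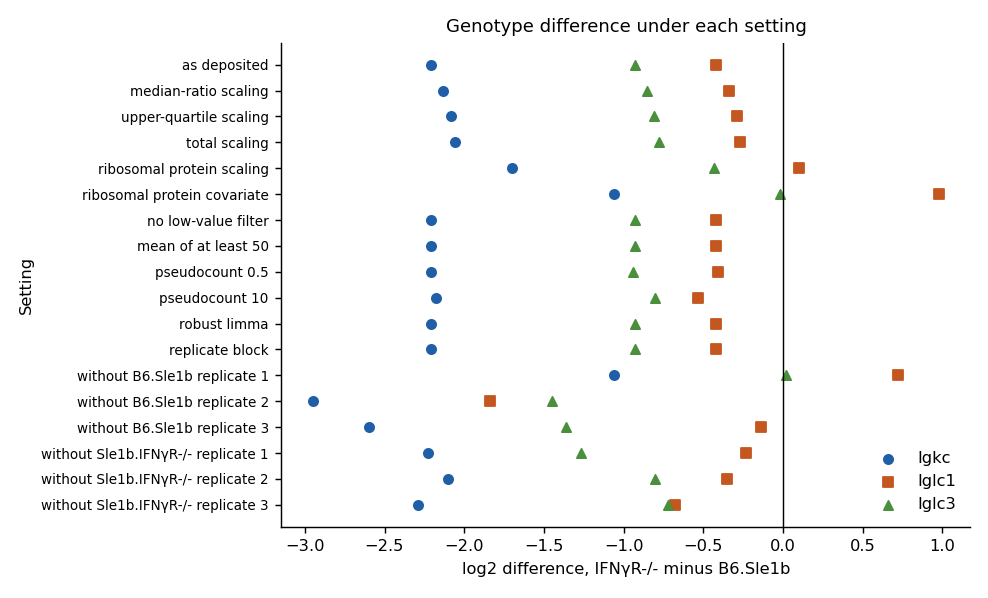
Log2 difference of Igkc, Iglc1 and Iglc3 (x axis, Sle1b.IFNγR-/- minus B6.Sle1b) under each setting (y axis). Igkc stayed negative in every setting drawn, from -2.95 to -1.06, while Iglc1 ran from -1.84 to 0.98 and crossed 0 with ribosomal protein scaling, with that covariate and without B6.Sle1b replicate 1.

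Levels of the genes can be set side by side only per length. Per kb of annotated exon, Igkc lay at 17400, 1270 and 2060 scaled counts in B6.Sle1b, against 797, 672 and 867 in Sle1b.IFNγR-/-. Iglc1 lay at 1030, 27.2 and 310 per kb against 119, 141 and 224. Kappa was the highest of the 4 genes in each library. Iglc3 followed at 422, 52.7 and 60.1 against 92.9, 47.2 and 42.4 per kb, and the locus of Iglc2 was lowest at 96.6, 14.8 and 21.4 against 41.4, 27.5 and 1.96. The order was kappa, Iglc1, Iglc3, Iglc2, except in B6.Sle1b replicate 2, where Iglc3 exceeded Iglc1. In Sle1b.IFNγR-/- no neighbours in this order overlapped, though Iglc3 and Iglc2 came within 42.4 and 41.4 per kb, and in B6.Sle1b the ranges of the 3 lambda genes overlapped.

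Within each library lambda was set against kappa, a ratio that does not depend on how libraries were scaled. The summed lambda genes amounted to 7.86%, 7.16% and 16.7% of Igkc in B6.Sle1b, against 29.5%, 28.6% and 26.5% in Sle1b.IFNγR-/-. The groups did not overlap. Of the B6.Sle1b libraries, replicate 3 came closest to the Sle1b.IFNγR-/- range, and the receptor-deficient libraries varied far less among themselves. The means were 10.6% ± 5.30 and 28.2% ± 1.54 (SD, n = 3 each), a 2.88-fold higher ratio of geometric means or 1.52 on the log2 scale. The two-sided exact permutation p was 0.1, the smallest that 3 against 3 libraries allow, and 0.16 after adjustment over 8 ratios.

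This separation was common once Igkc was the denominator: 64.8% of named loci had a higher ratio to Igkc in Sle1b.IFNγR-/- without overlap, and 0.0208% a lower one. Over all loci the median log2 difference of the ratio to Igkc was 2.12, above the 1.52 of the lambda genes. Since most loci separated in this way, the separation is not by itself a result about the lambda genes. The 4 loci with a lower ratio, looked up after their values were seen, were Ighg2c, Igkv3-2, Igkv12-46 and Ttc5.

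Expressed as a share of all light-chain fragments, lambda made up 7.29% (95% Clopper-Pearson interval 6.78 to 7.82), 6.68% (5.13 to 8.53) and 14.3% (12.5 to 16.3) in B6.Sle1b. In Sle1b.IFNγR-/- it made up 22.8% (19.5 to 26.3), 22.2% (18.3 to 26.6) and 20.9% (17.4 to 24.8). These intervals cover counting error only. They treat fragments as independent counts, although the values did not qualify as recovered reads and the RNA was amplified, so they may be too narrow. B6.Sle1b replicate 3 stood apart from the other two of its group by more than counting error, whereas the intervals of the 3 Sle1b.IFNγR-/- libraries overlapped one another. The shares rest on between 59 and 715 lambda fragments and between 318 and 9094 kappa fragments per library.

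**Figure D3:**
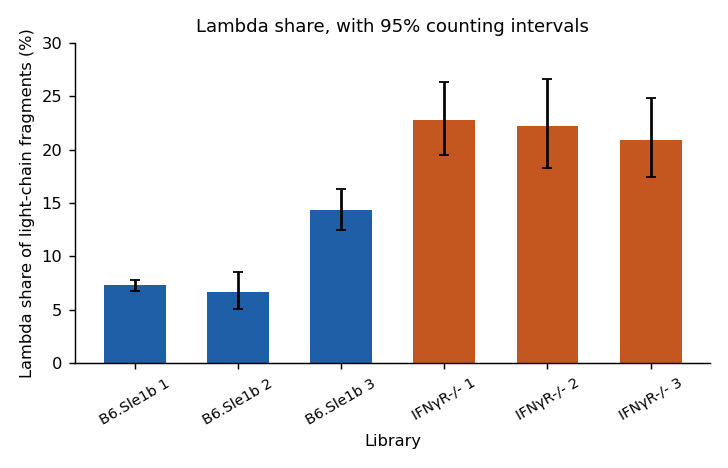
Lambda share of light-chain constant region fragments (bars, %) in each library, with 95% exact binomial intervals as error bars. The B6.Sle1b bars lie between 6.68% and 14.3% and the Sle1b.IFNγR-/- bars between 20.9% and 22.8%.

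The makeup of lambda itself varied from library to library. Iglc1 held 63.9%, 25.4% and 76.9% of lambda fragments in B6.Sle1b, against 43.4%, 62.6% and 83.3% in Sle1b.IFNγR-/-. Iglc3 held 26.2%, 49.2% and 14.9% against 33.6%, 20.9% and 15.7%, and both Iglc2 loci together held 9.93%, 25.4% and 8.21% against 23.1%, 16.5% and 0.98%. No lambda gene separated the groups by its share of lambda. Single lambda genes over Igkc gave the same direction on average. Iglc3 was the one lambda gene whose ratio to Igkc did not overlap, at 2.06%, 3.52% and 2.48% against 9.9%, 5.97% and 4.16% (exact permutation p = 0.1, adjusted 0.16). On this ratio 64.8% of named loci were also higher without overlap. Their median log2 difference over all loci was 2.12, above the 1.26 of Iglc3, so this separation is not particular to Iglc3. Iglc1 to Igkc was 5.03%, 1.82% and 12.8% against 12.8%, 17.9% and 22.1%, and the highest B6.Sle1b and the lowest Sle1b.IFNγR-/- value were close to equal, with overlap (exact permutation p = 0.2, adjusted 0.267). Iglc2 to Igkc was 1.32% ± 0.521 against 3.93% ± 3.34 (exact permutation p = 0.7, adjusted 0.7, n = 3 each), and its direction turned to a log2 difference of -0.17 without Sle1b.IFNγR-/- replicate 1.

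Variable segments, which are counted at separate loci, gave a second reading of the lambda and kappa loci. The 3 lambda segments Iglv1, Iglv2 and Iglv3 summed to 4.75%, 4.32% and 8.51% of the 162 kappa variable loci in B6.Sle1b, against 8.33%, 9.83% and 6.81% in Sle1b.IFNγR-/-. Here the groups overlapped, with B6.Sle1b replicate 3 inside the Sle1b.IFNγR-/- range, and the log2 difference was 0.56 (exact permutation p = 0.3, adjusted 0.343). Summed kappa segments had 3289.3, 419 and 631 scaled counts against 435, 400 and 413. Unlike Igkc, they thus overlapped between groups. Of the 3 kappa segments of highest mean, Igkv17-127 had 344, 4.93 and 34.7 against 5.25, 5.62 and 2.396, so its mean rests on B6.Sle1b replicate 1. The other two, Igkv3-10 and Igkv3-4, had log2 differences of -1.09 and -1.15, and none of the 3 passed.

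The variable and joining rows of the lambda locus were low beside Igkc. Iglv1, which joins to Iglc1 or Iglc3, had 26.9 ± 33.5 against 11.5 ± 6, and Iglv3 43.2 ± 33.1 against 20.3 ± 6.03 (SD, n = 3 each). Iglv2 had 12.2, 1.64 and 3.75 against 2.62, 3.37 and 2.396 and was not tested. Iglc4, a constant region pseudogene in RefSeq, had 19.4, 41.1 and 33.7 in B6.Sle1b, against 32.4, 34.8 and 45.5 in Sle1b.IFNγR-/-. It was lowest in B6.Sle1b replicate 1, the library in which the 3 functional lambda genes were highest. Per kb of exon, Iglc4 lay at 61.7, 131 and 107 in B6.Sle1b, against 103, 111 and 145 in Sle1b.IFNγR-/-. Outside B6.Sle1b replicate 1 it was above Iglc3 and the merged locus of Iglc2 in each library, and in B6.Sle1b replicate 2 also above Iglc1. How much of the low lambda values is background was not tested. The segment of Iglc4 is 86.6% identical to that of Iglc1, 74.2% to Iglc2 and 73.6% to Iglc3, and had no run of 50 bases in common with any other gene. The joining segments Iglj1, Iglj3, Iglj3p and Iglj4 were listed at 0 in every library, as were Igkj1, Igkj2 and Igkj3. The merged locus of Igkj4 and Igkj5 had 91.7, 9.04 and 16.9 against 23.6, 21.4 and 19.2, with overlap, and was the 1 kappa joining locus tested (log2 difference -0.20). Of the 9 loci of lambda variable and joining segments and Iglc4, the merged locus of Iglj2 and Iglc2 included, 4 were tested, 3 of them negative, with a median of -0.59, and 0 passed.

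Light chains were next set against the 8 heavy-chain constant regions, with which they are assembled. Igkc amounted to 39.1%, 20.8% and 21.9% of the summed heavy-chain values in B6.Sle1b, against 16.1%, 13.6% and 15.8% in Sle1b.IFNγR-/-. All 3 receptor-deficient libraries lay below all control libraries, a 1.73-fold difference of geometric means (log2 -0.79, exact permutation p = 0.1, adjusted 0.16). Without B6.Sle1b replicate 1 the log2 difference was -0.50. A ratio to the heavy chains that was lower without overlap was found in 0.0468% of named loci, 9 in all, among them Igkc and, looked up after their values were seen, the 3 kappa variable segments Igkv3-2, Igkv12-46 and Igkv12-44.

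Lambda went the other way against the same denominator. The summed lambda genes amounted to 3.07%, 1.49% and 3.65% of the heavy-chain values in B6.Sle1b, against 4.75%, 3.90% and 4.18% in Sle1b.IFNγR-/-. The groups did not overlap (log2 0.74, exact permutation p = 0.1, adjusted 0.16), but 38.3% of named loci were higher without overlap on this ratio and the median over all loci was 1.34. Without Iglc2 (log2 0.75, exact permutation p = 0.2) or with Iglc1 as the lambda gene (log2 1.02, exact permutation p = 0.4) the groups overlapped. Kappa and lambda together amounted to 42.1%, 22.3% and 25.6% of the heavy-chain values in B6.Sle1b, against 17.5% to 20.9% in Sle1b.IFNγR-/-, lower without overlap (log2 -0.57, exact permutation p = 0.1, adjusted 0.16). Summed per kb of exon, the light-chain to heavy-chain groups overlapped (log2 -0.40, exact permutation p = 0.3).

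**Figure D4:**
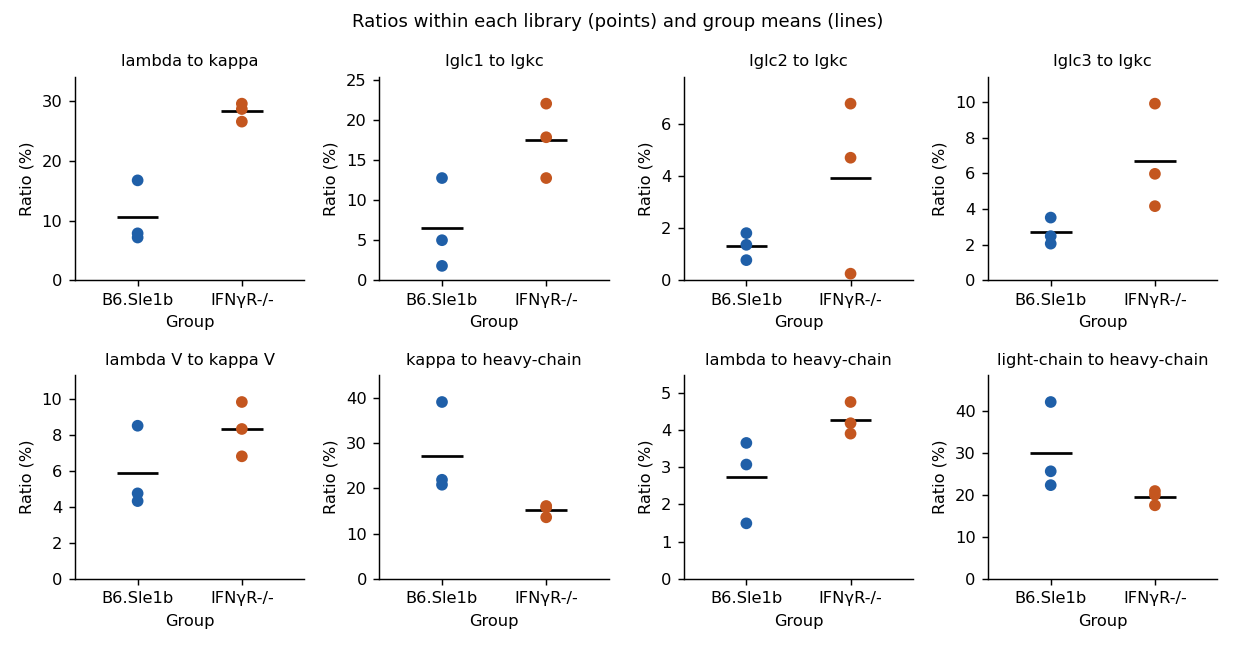
The 8 ratios, in percent, for each library (points) with the group mean (line), each axis starting at 0. Lambda to kappa, Iglc3 to Igkc and lambda to heavy-chain are higher and kappa to heavy-chain and light-chain to heavy-chain lower in Sle1b.IFNγR-/- without overlap, and the other 3 overlap.

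The heavy-chain constant regions themselves had 7 of 8 negative log2 differences, with a median of -0.99, and 0 passed. Like Igkc, 5 of the 8 were lower without overlap, Ighg2c and Ighg3 among them, beside 5.19% of named loci. Ighg2c, the IgG2c constant region, lay at 2870 ± 3820 against 238 ± 25.1, and Ighg3 at 1470 ± 1800 against 170 ± 11.5. Ighm, the IgM constant region of naive B cells and early antibody-forming cells, lay at 3100 ± 2440 against 1130 ± 125 (SD, n = 3 each), and its values overlapped. Against the 14 genes of the B cell receptor and surface, such as Cd79a and Cr2, Igkc amounted to 481%, 82.7% and 91.5% in B6.Sle1b, against 40.0%, 34.5% and 40.1% in Sle1b.IFNγR-/-, lower without overlap, as were 2.37% of named loci, while 4.47% were higher. The lambda genes amounted to 37.8%, 5.92% and 15.2% against 11.8%, 9.86% and 10.6% of these B cell genes and overlapped.

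Against 18 genes of antibody-forming cells, Igkc amounted to 213%, 130% and 104% in B6.Sle1b, against 66.6%, 57.4% and 76.7% in Sle1b.IFNγR-/-, again lower without overlap, as were 0.0729% of named loci, while 16.6% were higher. Lambda amounted to 16.8%, 9.28% and 17.4% against 19.6%, 16.4% and 20.3%, and the groups overlapped. These comparisons with B cell and antibody-forming cell genes were added after the data were seen and are descriptions without a test. In the antibody-forming cell sum, the merged locus of Hsp90b1 was largest in every library. It held 1985 of 4349 scaled counts in B6.Sle1b replicate 1 and 207 of 637 in Sle1b.IFNγR-/- replicate 1. Ratios to this sum are therefore weighted toward that locus and do not measure the amount of antibody-forming cells. All 14 tested antibody-forming cell loci had negative log2 differences, with a median of -1.07, and 0 passed. Of these loci, 5 were lower without overlap, beside 5.19% of named loci. Tnfrsf17, the plasma cell survival receptor BCMA, was under 3 fragments in every library. Creld2, whose protein sits in the endoplasmic reticulum, had 38.9 ± 39.0 against 3.96 ± 1.93, and Derl3, which takes part in degrading misfolded proteins there, had 25.7 ± 12.3 against 7.76 ± 4.04 (SD, n = 3 each).

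The B cell genes had 11 of 14 negative log2 differences, with a median of -0.25, and 0 passed. Cr2, a complement receptor of marginal zone and follicular B cells, was the member with the smallest p and had higher values without overlap, at 57.2 ± 23.6 against 99.3 ± 16.8. Cd72 was lower without overlap, at 58.0 ± 22.2 against 38.5 ± 6.42. Over all named loci 3.51% were higher and 5.19% lower without overlap. Cd79a, a signalling chain of the receptor, lay at 41.4 ± 35.0 against 17.5 ± 11.7 (SD, n = 3 each). Summed B cell genes ranged from 819 to 1927 in B6.Sle1b and from 1037 to 1151 in Sle1b.IFNγR-/-, so the highest and the lowest library were both controls.

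Transcription factors that bind light-chain enhancers had 9 of 13 tested loci negative, with a median of -0.27, and 0 passed. Irf4, which acts at kappa and lambda enhancers and in plasma cells, lay at 108 ± 102 against 42.1 ± 6.38, and Tcf4 at 66.7 ± 56.0 against 30.5 ± 10.9 (SD, n = 3 each). Genes of the surrogate light chain and of V(D)J recombination had 4 of 4 tested loci negative, with a median of -0.14, and 0 passed. Vpreb1, part of the surrogate light chain of precursor B cells, had 26.5, 22.2 and 31.9 against 17.5, 16.9 and 15.6, without overlap (log2 difference -0.65, SE 0.38, limma unadjusted p = 0.115). It was 1 of the 4 tested loci, and 5.19% of all named loci were lower without overlap. Igll1, its partner, lay at 3.32 ± 3.82 and 6 ± 4.64, and the recombinase genes Rag1 and Rag2 at 42.2 ± 13.1 against 40.9 ± 7.43 and 45.8 ± 14.4 against 38.2 ± 6.87 (SD, n = 3 each).

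**Figure D5:**
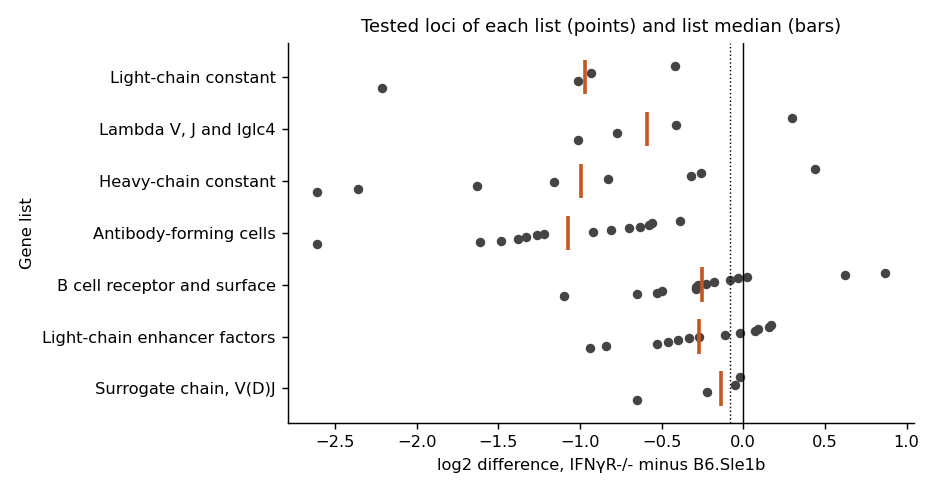
Log2 difference (x axis, Sle1b.IFNγR-/- minus B6.Sle1b) of each tested locus (points) by gene list (y axis), with list medians as orange bars and the median of all loci, -0.083, as a dotted line. Light-chain constant, heavy-chain constant and antibody-forming cell genes have medians of -0.97, -0.99 and -1.07, and no locus passed the adjusted test.

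Among other cell types, 4 of 7 tested T cell loci were positive (median 0.02) and the list summed to between 289 and 496 scaled counts in B6.Sle1b, against 315 to 321 in Sle1b.IFNγR-/-. Erythroid genes had 7 of 10 positive (median 0.17), with sums of 272 to 3647 against 702 to 1054, and none of the 10 was at 0 throughout. Neutrophil genes had 4 of 4 negative (median -0.40), with sums of 127.5 to 357 against 136 to 157. In these 3 lists, as in the B cell and ribosomal protein lists (22 of 26 negative, median -0.45), B6.Sle1b replicate 1 held the highest sum, as it did for Igkc and each lambda gene. Beyond the fits with the ribosomal protein genes and without that library, the part of these levels in the light-chain values was not tested.

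Among the loci most like Igkc over the 6 libraries, by Pearson's correlation of log2(value + 1), were Cfl1, an actin-severing protein gene (r = 0.9964), Ighg2c (0.9947), Ighg2b (0.9939) and Pla2g16 (0.9933). Those most like Iglc1 were Lsm12 (r = 0.9999), Cd74, the MHC class II invariant chain gene (0.9944), Tbl1xr1 (0.9943), Ldlrad4 (0.9931) and Cd180, a B cell surface receptor gene (0.9924). The lists held no locus in common, but they hold only the highest correlations, and overlap further down was not counted. Without B6.Sle1b replicate 1 the values for these loci lay between 0.95 and 1.0, over libraries that had also served to pick them. Lsm12 was low, at 1.64 scaled counts in B6.Sle1b replicate 2. In all, 557 loci reached 0.9 with Igkc and 999 with Iglc1. Cd74 had 1750, 114 and 630 scaled counts in B6.Sle1b, against 364, 396 and 453 in Sle1b.IFNγR-/-, the same order of control libraries as Iglc1, with replicate 2 lowest and overlap between groups.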

How the data were processed

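RNA was measured in 6 spleen libraries. It was extracted with TRIzol and amplified with the Ovation RNA-seq System V2, per the labels' protocols. The tools listed in the submitters' processing notes are CASAVA, TopHat2 2.0.9 and Cufflinks 2.2.1, with the build GRCm38. The sources used here do not give how multiply mapped reads were handled or whether strand was used. The deposited signal is a fragment count for each locus; quartile scaling by the authors is taken from the name of the table. All 1530481 rows were collapsed to 426574 loci, and 24 further columns were not used. In each library at least 99.79% of positive values were whole multiples, within 0.01, of 1 step, which gave the fragments. These values did not qualify as recovered reads, so the planned count tests were not run.

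Loci with a gene name and a mean scaled count of 10 or more entered limma 3.58.1 as log2(value + 1) (R 4.3.3, intensity trend, genotype as the only term) at a Benjamini-Hochberg adjusted p under 0.05; such fold changes understate those of low genes. The procedure was tested on simulated data, where most changes of 2-fold and of 4-fold did not pass. A locus that did not pass may therefore still differ. For ratios, two-sided exact permutation tests were used (scipy 1.17.1). Exon lengths and coordinates came from GENCODE mouse release 21 (GRCm38), matched by transcript for 95.9% of named loci. The genes named are the 4 members, the 14 lists, the 3 kappa segments of highest mean, Ifngr1 and the 5 loci most like Igkc and Iglc1, of which 1 is not reported here. Members, lists and rules were chosen with earlier results of these data known. Alternatives were other scalings, filters and pseudocounts, robust limma, a ribosomal protein covariate, a replicate block, other sums and leaving out each library.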

Additional observations from a re-analysis of the deposited data

How the results depend on the processing

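With 3 libraries a group, no exact test could pass 0.05, and low lambda counts limit Iglc2 most. The number of loci past the limma threshold was 0, and 1 with total scaling, 3 with ribosomal protein scaling, 19 with the ribosomal protein covariate and 0 to 5 when single libraries were left out (5 without B6.Sle1b replicate 1 or replicate 2). Scaling moved the median of all loci from -0.083 to 0.401 with ribosomal protein genes. Igkc passed with the covariate (-1.06) and without B6.Sle1b replicate 2 (-2.95). Iglc1 turned positive with ribosomal protein scaling (0.10), with the covariate (0.98) and without B6.Sle1b replicate 1 (0.72). The cause of these changes was not tested. Leaving out single libraries gave -2.95 to -1.06 for Igkc, -1.84 to 0.72 for Iglc1, -1.71 to 0.09 for Iglc2 with Iglj2 and -1.45 to 0.02 for Iglc3. The log2 ratio differences ranged from 1.30 to 1.91 for lambda to kappa, 1.10 to 2.50 for Iglc1, -0.17 to 2.18 for Iglc2 and 0.93 to 1.55 for Iglc3 to Igkc. They ranged from 0.37 to 0.86 for lambda V to kappa V, -0.95 to -0.50 for kappa to heavy-chain, 0.35 to 1.00 for lambda to heavy-chain and -0.76 to -0.30 for light-chain to heavy-chain. The lambda to kappa difference kept its sign under all 15 alternatives run, but for most of them no other sign was possible. Because the groups did not overlap, leaving out a library could not reverse it, and the replicate block leaves the difference unchanged. Alternatives that changed the rows summed gave 1.47 (with kappa joining rows) to 1.81 (Iglc1 as the lambda gene).

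Replicate numbers are shared between the groups, but same-numbered libraries did not deviate together (correlations of 0.012, -0.027 and -0.011 over tested loci), and not every library correlated best with its own number. With the replicate block, limma called 0 loci and left Igkc at -2.21, and swapping labels within pairs gave the lambda to kappa difference of 1.52 an exact p of 0.25, the smallest 3 pairs allow. The planned count tests were not run, and Iglc2 gave no value with a minimum mean of 50.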
